A study of Mus musculus with 12 samples.

Results

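Alternating purine-pyrimidine tracts of 100 bp or more were examined in the DNA that the zinc finger protein ZBTB43 captured in vitro. A tract is a run in which every purine (A or G) is followed by a pyrimidine (C or T) and every pyrimidine by a purine, and it had to hold at least 1 G or C. Of the 169284 autosomal peaks captured from methylated DNA, 3327 held such a tract, which is 1.97% (95% Wilson interval 1.90 to 2.03). Of the 14554 autosomal peaks captured from unmethylated DNA, 1882 did, which is 12.9% (12.4 to 13.5). The members were chosen by the reference sequence under each peak alone, so neither the score of a peak nor its overlap with the other list entered the choice.

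ZBTB43 fused to maltose-binding protein (MBP) was incubated with sheared genomic DNA, and the captured fragments were sequenced. MBP alone served as the background in both cases. The methylated DNA came from lung of male wild-type C57BL/6N mice aged 2 months and had been treated with M.SssI, a bacterial enzyme that methylates every CpG. The unmethylated DNA came from Dnmt1-/-Dnmt3a-/-Dnmt3b-/- embryonic stem cells (TKO, male, labelled 3.5 dpc, a single clone), which lack the DNA methyltransferases. The lists are called SssI and TKO here. Each was made from 2 ZBTB43 and 2 MBP libraries pooled, so there is 1 list per DNA and no replicate error. The DNA sources differ in tissue and genotype as well as in methylation, and these cannot be told apart. No test between the DNAs was made. All intervals cover counting error over peaks or tracts only, and the peak lists do not give the depth of each library.

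Alternating tracts are the sequences most prone to adopt Z-DNA, a left-handed helix in which successive bases take turns in the syn and anti conformation. Each such tract can be read as a row of pyrimidine-purine steps, which are CA (or TG on the other strand), CG or TA. CG steps are known to adopt the left-handed form most readily, CA steps less so and TA steps least. CG is also the step that a CpG methyltransferase acts on. ZBTB43 belongs to the BTB zinc finger family, whose members join a protein interaction domain to DNA-binding zinc fingers.

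The tract sequences below show what the peaks held, on the plus strand of GRCm38 (mm10). The first is a tract rich in CpG, with each CpG in capitals. It belongs to 1 of the TKO members that had no SssI peak, in an intron of Rbfox1 (chr16:6123083-6123186).
Rbfox1: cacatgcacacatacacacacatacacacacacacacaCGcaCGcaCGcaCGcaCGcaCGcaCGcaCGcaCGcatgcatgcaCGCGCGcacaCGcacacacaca
This tract of 104 bp mixed CA and CG steps, with 71.2% CA or TG steps and 13 CpGs.

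The other sequences show TA steps in capitals, since capture fell as they rose. They are a CA tract captured from both DNAs, in an intron of Pcdh7 (chr5:57918797-57918920), and a tract captured from methylated DNA only, in an intron of Rps6kl1 (chr12:85137600-85137801).
Pcdh7: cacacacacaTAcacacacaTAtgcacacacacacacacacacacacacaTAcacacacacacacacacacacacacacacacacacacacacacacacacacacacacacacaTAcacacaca
Rps6kl1: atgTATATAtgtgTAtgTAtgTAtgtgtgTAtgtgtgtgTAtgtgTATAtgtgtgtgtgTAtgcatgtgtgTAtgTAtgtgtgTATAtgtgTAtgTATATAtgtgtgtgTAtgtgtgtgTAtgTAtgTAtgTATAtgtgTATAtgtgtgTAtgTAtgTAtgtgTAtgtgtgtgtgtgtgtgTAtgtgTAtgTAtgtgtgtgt
TA made up 6.45% of the steps of the Pcdh7 tract and 34.0% of those of the Rps6kl1 tract. An intergenic tract of 685 bp without a peak in either list (chr14:78256810-78257494) had 71.6% TA steps and no CpG. Only 36.1% of the 50-base stretches in and around it occurred once in the genome, and whether reads could be placed there was not tested.

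Peaks with a long tract mostly ranked high in the SssI list. The score, which is 10 times the −log10 q of the peak caller, had a median of 1056 over the 3327 SssI members (quartiles 473 and 1440, range 18 to 2311) and of 105 over the other autosomal SssI peaks. Scores cannot be compared between lists, so each peak was ranked within its own list, where 0 is the highest score and 100 the lowest. The median member lay at percentile 5.74 (5.48 to 5.96). Of the SssI members, 45.0% lay in the highest 5 percent of scores, and 68.5% in the highest 10 percent. In turn, members made up 17.2% of the autosomal peaks in that highest 5 percent, beside 1.97% of all.

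In the TKO list the members stood less high. Their median score was 334 (quartiles 153 and 718, range 16 to 3284), beside 174 for the other autosomal peaks, and their median percentile was 35.7 (34.3 to 37.4). Only 2.44% of them lay in the highest 5 percent of TKO scores and 8.24% in the highest 10 percent, so the very top of the TKO list was not made of long tracts. Of the autosomal peaks in the highest 1 percent of the TKO list, 3 of 146 were members, or 2.05% (0.701 to 5.87), beside 12.9% of all autosomal TKO peaks. Of the TKO members, 68.2% lay in the upper 50 percent of their list.

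In the SssI list the score rank rose with the length of the longest tract from 12 bp upward. Its median percentile was 62.0 in peaks without a tract of 12 bp, 62.7 at 12 to 35 bp, 53.0 at 36 to 59 bp, 29.4 at 60 to 79 bp and 13.5 at 80 to 99 bp. It reached 6.77 (6.42 to 7.24) at 100 to under 150 bp and 4.40 (4.20 to 4.65) at 150 bp or more. The TKO list ran differently. Its median percentile was 37.0 without a tract, went down to 58.3 at 60 to 79 bp and 55.7 at 80 to 99 bp, and rose again to 44.4 (42.3 to 46.2) and 26.3 (24.7 to 27.8) in the 2 classes of members. The 100 bp limit itself marked no step. SssI peaks with a longest tract of exactly 99 bp had a median score of 691 (107 peaks, 35 to 1850), and those with exactly 100 bp had 733 (97 peaks, 35 to 2248). The TKO medians were 162 (34 peaks, 53 to 2591) and 248 (25 peaks, 33 to 1305).

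**Figure D1:**
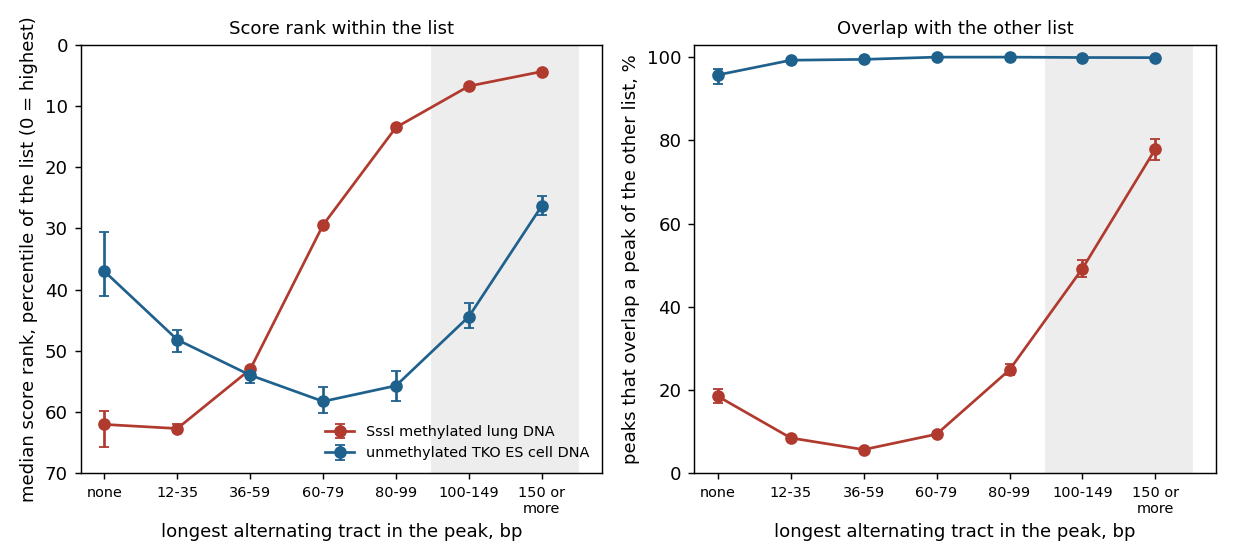
Autosomal peaks by the longest alternating tract inside them (x axis, bp), with the median score rank percentile on the left (axis turned so that high scores are at the top, bars are order-statistic 95% intervals) and the share overlapping a peak of the other list on the right (bars are Wilson 95% intervals). The shaded classes are the members, where SssI ranks reach 6.77 and 4.40 and the SssI overlap reaches 49.2% and 77.9%.

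Of the 7 classes of tract length, the 2 classes of members were also the SssI peaks most often captured from unmethylated DNA. Of the 3327, 1945 overlapped a TKO peak by 1 bp or more, which is 58.5% (56.8 to 60.1), whereas 8.47% of all autosomal SssI peaks did. The share was 9.41% at 60 to 79 bp and 24.9% at 80 to 99 bp, 49.2% (47.1 to 51.3) at 100 to under 150 bp and 77.9% (75.3 to 80.3) at 150 bp or more. SssI peaks without a tract of 12 bp overlapped TKO peaks in 18.5%, more often than those with tracts of 12 to 79 bp. In the other direction 1880 of the 1882 TKO members overlapped an SssI peak, or 99.9%, beside 99.4% of all autosomal TKO peaks, so that nearly complete overlap was a feature of the whole TKO list and says nothing about its members.

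A peak must be wide to hold a long tract, and wide peaks also overlapped more. SssI members had a median width of 384 bp, beside 195 bp for the other autosomal peaks. The comparison was therefore repeated within classes of width. Among SssI peaks under 200 bp wide, 1 of 249 members overlapped a TKO peak (0.402%), and so did 0.505% of peaks with a tract of 60 to 99 bp. From 200 bp upward the members were ahead in every class. At 300 to under 400 bp, 56.9% (53.7 to 60.1) of 910 members overlapped, beside 36.4% (34.5 to 38.3) with a tract of 60 to 99 bp and 25.8% (24.9 to 26.7) with a shorter one. At 400 to under 600 bp the shares were 84.6%, 60.4% and 51.0%, and at 600 bp or more 93.2%, 75.7% and 66.3%. The SssI ranks also depended on width. The median percentile of members was 56.4 under 200 bp, where tracts of 60 to 99 bp were at 54.0, and 16 beside 23.1 at 200 to under 300 bp. At 300 to under 400 bp members were at 5.75, tracts of 60 to 99 bp at 8.14 and shorter ones at 13.5. Score ranks thus still differed within a width class, and overlap with TKO peaks was not compared at equal rank. In the TKO list the ranks within a width class lay closer together, for example at percentile 43.0 for members, 50.0 for tracts of 60 to 99 bp and 52.2 for shorter ones at 200 to under 300 bp. At 400 to under 600 bp the TKO order was turned, with members at 18.1, tracts of 60 to 99 bp at 17.2 and shorter ones at 12. At 600 bp or more members were at 12.8, between tracts of 60 to 99 bp at 15.6 and shorter ones at 9.63.

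**Figure D2:**
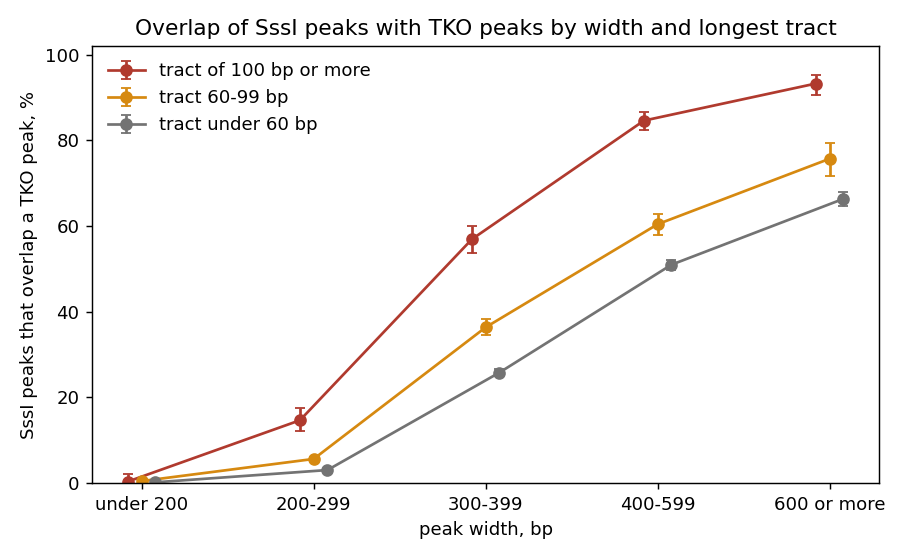
Share of autosomal SssI peaks that overlap a TKO peak by 1 bp or more (y axis, %), by peak width (x axis, bp) and by the longest alternating tract in the peak (colours), with Wilson 95% intervals. Members lie above the other classes from 200 bp upward, for instance at 84.6% beside 60.4% and 51.0% at 400 to under 600 bp, and at 0.402% below 200 bp.

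The tract lay near the centre of its peak, in part because the rule requires the peak to hold it. The distance from the centre of the tract to the midpoint of the peak had a median of 19.5 bp in the SssI list and 17 bp in the TKO list, and was at most 50 bp in 79.7% and 82.5% of members. The peak midpoint fell inside the tract in 86.1% of SssI and 88.9% of TKO members. A tract that fills over 50% of its peak must hold the midpoint, so part of these shares was fixed in advance. No expected distance or share was computed. The tract filled a median of 37.1% of the SssI peak and 52.9% of the narrower TKO peak, which had a median width of 290 bp. It filled the whole peak in 18 SssI and 27 TKO members, and reached an edge of the peak in 259 and 238, where the tract was counted only up to that edge. Where both lists had a peak over a TKO member, the SssI peak was the wider one in 1870 of 1880 pairs, with medians of 464 and 290 bp. A second tract of 100 bp or more lay in 195 SssI and 122 TKO members, and up to 7 lay in 1 peak.

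Tract length had a median of 126 bp (range 100 to 869) in the SssI list and 137.5 bp (100 to 869) in the TKO list. Of the SssI members, 2254 had a tract under 150 bp, 539 one of 150 to under 200 bp, 367 one of 200 to under 300 bp and 167 a longer one. The numbers in the TKO list were 1085, 373, 283 and 141. Most of these tracts were not near-perfect repeats of a single short unit. No repeat unit of 2 to 12 bp matched at 90% of positions in 65.0% of SssI and 64.5% of TKO members, and a dinucleotide unit did so in 18.2% and 18.5%. Interrupted or mixed repeats can fail this limit, so tracts without a unit may still be repetitive.

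**Figure D3:**
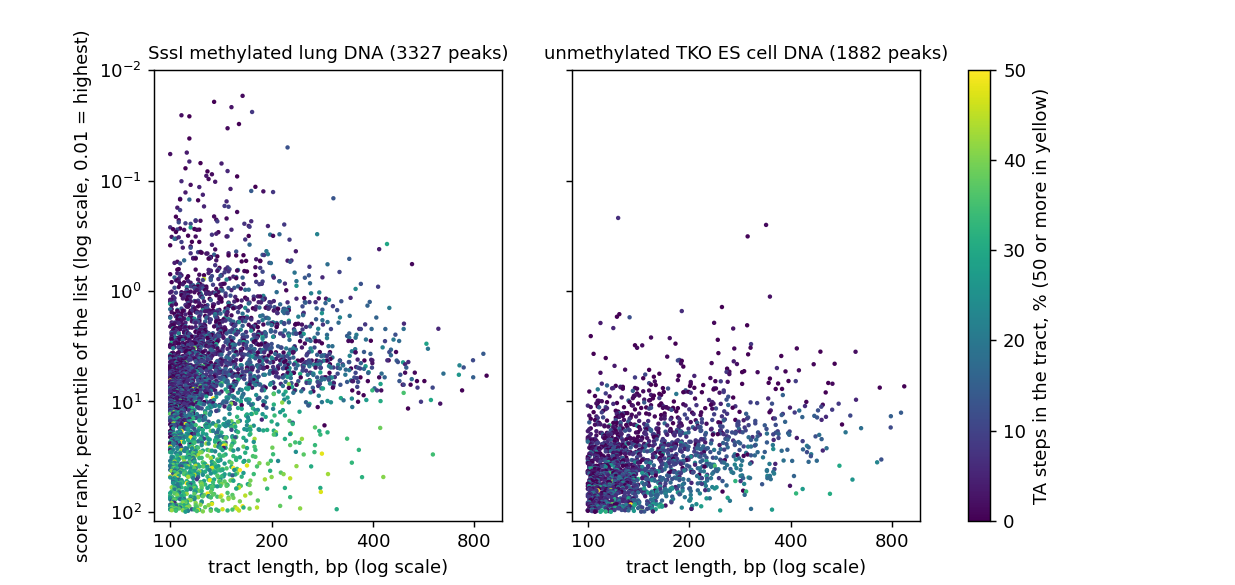
Every member of the SssI list (left, 3327 peaks) and of the TKO list (right, 1882 peaks), by tract length (x axis, bp, log scale) and score rank percentile within its list (y axis, log scale, highest scores at the top), coloured by the share of TA steps in the tract. The light points of tracts with many TA steps lie at the bottom of the SssI panel and are nearly missing from the TKO panel.

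The tracts were mainly CA and TG steps, which made up a median of 81.8% of steps in the SssI members and 84.9% in the TKO members. TA steps had a median of 11.7% (11.1 to 12.3) in the SssI list and 7.86% (7.41 to 8.62) in the TKO list. At most 25% of the steps were TA in 78.7% of SssI members and in 96.5% of TKO members, and over 50% were TA in 12 of 3327 and 2 of 1882. SssI members with a TKO peak had a median of 8.11% TA steps, a tract of 138 bp and a rank percentile of 3.46. Those without a TKO peak had 22.6% TA steps, 116 bp and a percentile of 17.6. Across the SssI members the score and the share of TA steps had a Spearman correlation of −0.59 (n = 3327 peaks). Over the TKO members it was −0.34 (n = 1882). These correlations are across peaks of 1 list, which share libraries, and describe that list only.

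CpG was absent from many of the tracts. In the SssI list 1850 members, or 55.6% (53.9 to 57.3), had a CpG in the tract. Of the TKO members 1176, or 62.5% (60.3 to 64.6), had one. The median was 1 CpG per tract in the SssI list and 2 in the TKO list, with quartiles of 0 and 5 and of 0 and 7 and a maximum of 97 in both. No CpG means that the enzyme had no site in that tract, and 1477 SssI and 706 TKO members were of this kind. All 706 of these TKO members overlapped an SssI peak, but so did 99.4% of all autosomal TKO peaks, so this is no trait of tracts without a CpG. Of the 1477 SssI members, 739 overlapped a TKO peak, or 50.0% (47.5 to 52.6). That share was 58.5% over all SssI members and 8.47% over all autosomal SssI peaks.

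Members with 5 or more CpGs ranked higher than the others in both lists. SssI members had a median percentile of 7.62 with no CpG, 6.23 with 1 to 4, 2.88 with 5 to 14 and 3.28 with 15 or more. TKO members had 42.8, 41.7, 25.8 and 12.2 in the same order. The TKO DNA carried no methylation at these sites. TKO members with 15 or more CpGs also had long tracts and wide peaks, with medians of 187.5 and 413 bp, beside 142 and 279 bp with no CpG. Those with 5 to 14 had 124 and 289.5 bp. CpG number was not separated from width in these ranks, and a role of methylation was not tested. Overlap of SssI members with TKO peaks was 50.0% with no CpG, 55.2% with 1 to 4, 74.2% with 5 to 14 and 85.0% (79.4 to 89.2) with 15 or more. The overlap also differed by length. Among SssI members with a tract of 200 bp or more, the overlap was 81.3% (75.8 to 85.8) without a CpG and 82 of 82 with 15 or more, whereas among those under 150 bp it was 39.9% (36.8 to 42.9) and 64.6% (53.6 to 74.2).

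To see which tracts were captured at all, every tract of the autosomes was set against both lists. The genome held 7982 tracts of 100 bp or more with a G or C, and 2 without. An SssI peak lay over 48.4% (47.3 to 49.5) of the 7982 and a TKO peak over 26.7% (25.7 to 27.6). Both lists had a peak over 2126, the SssI list alone over 1735 and the TKO list alone over 2.

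The share of TA steps separated captured from uncaptured tracts more sharply than CpG number or length. Of the 2839 tracts with at most 25% TA steps, 98% (97.4 to 98.4) lay under an SssI peak and 70.7% (69.0 to 72.3) under a TKO peak. With over 25 and up to 50% TA steps the shares were 46.3% (44.2 to 48.4) and 5.50% (4.61 to 6.55) of 2129 tracts. With over 50 and up to 75% they were 3.47% and 0.154% of 2593 tracts. With more than 75% TA steps 1.19% of 421 tracts had an SssI peak and none had a TKO peak, which allows a share of up to 0.713%. In steps of 10 percent, the SssI share was 94.3% or more in each class up to 30% TA steps and fell to 62.2% and 23.9% in the next 2 classes. The TKO share went down earlier, from 71.7% at 10 to 20% TA steps to 36.8% at 20 to 30% and 4.69% at 30 to 40%.

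**Figure D4:**
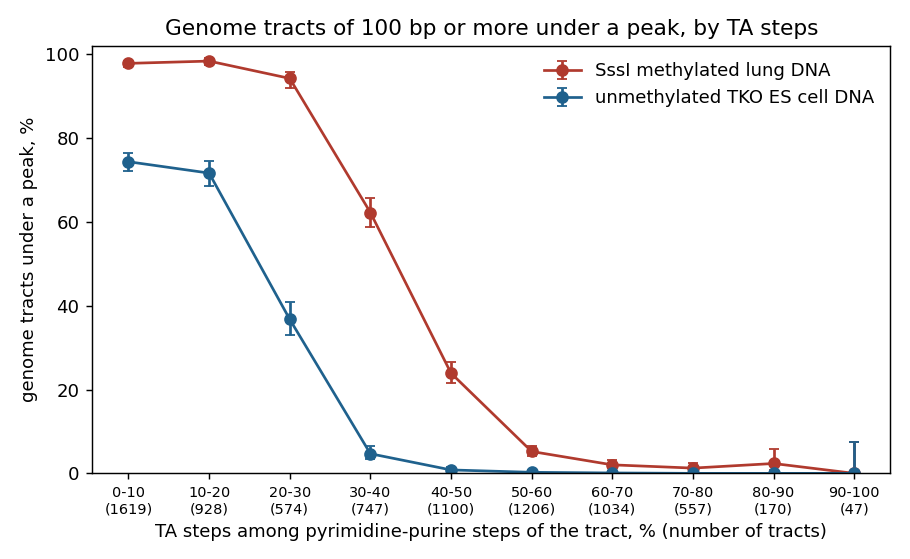
Share of the genome's 7982 alternating tracts of 100 bp or more that lie under a peak (y axis, %), by the share of TA among the pyrimidine-purine steps of the tract (x axis, number of tracts in brackets), with Wilson 95% intervals. The SssI share falls from 94.3% at 20 to 30% TA steps to 23.9% at 40 to 50%, and the TKO share from 71.7% at 10 to 20% to 4.69% at 30 to 40%.

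The classes of TA share were chosen after the data were seen. In a strictly alternating tract fewer TA steps mean a higher GC content, with medians of 46.8%, 30.1% and 19.8% GC in the first 3 classes, so TA share and GC content cannot be told apart here. Reads from repeats may be hard to place, so the share of 50-base stretches in and within 150 bp of each tract that occur once in the genome was measured as well. Its medians were 85.6%, 91.2%, 89.0% and 86.5% over the 4 classes of rising TA share. Among the tracts in which at least 95% of these stretches occurred once, 99.2% of those with at most 25% TA steps and 2.44% of those with over 50 and up to 75% lay under an SssI peak.

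Among all tracts, capture rose with the number of CpGs. SssI peaks lay over 35.3% of tracts with no CpG, 61.6% with 1 to 4, 92.2% with 5 to 14 and 97.7% with 15 or more. For TKO peaks the shares were 16.3%, 32%, 68.5% and 83.3%. Within the tracts with at most 25% TA steps the SssI shares were 97.6% (96.5 to 98.3), 97.5% (96.2 to 98.4), 99% (97.9 to 99.5) and 98.6% (96.0 to 99.5). These lie near the ceiling, which leaves little room for a gradient. The ranks of these SssI peaks still differed, with median percentiles of 5.23, 4.80, 2.85 and 3.51 in the same order. Peaks over tracts without a CpG can also hold CpGs beside the tract, such as 3 in the SssI peak over a tract of 850 bp. When they had few TA steps, tracts without a methylation site of their own thus lay under an SssI peak at shares that differed by at most 1.38 percentage points from those of tracts with such sites. In the TKO list part of the gradient remained, at 68.5% (65.7 to 71.1), 66.1% (62.8 to 69.2), 75.6% (72.2 to 78.7) and 84.9% (79.5 to 89.0). Where TA steps were many, capture stayed low with and without CpGs. With over 50 and up to 75% TA steps, SssI peaks lay over 3.10% (2.45 to 3.91) of 2164 tracts without a CpG and 5.69% (3.82 to 8.40) of 404 tracts with 1 to 4. None of the 24 tracts with 5 to 14 CpGs in that class had a peak in either list, which allows a share of up to 12.5%.

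Length went with capture from the unmethylated DNA. Among tracts with at most 25% TA steps, TKO peaks lay over 62.0% (59.8 to 64.2) of those under 150 bp, 84.0% (80.3 to 87.1) of those of 150 to under 200 bp and 93.2% (90.6 to 95.2) of longer ones. For tracts of 80 to 99 bp with as few TA steps the share was 28.6% (27.2 to 30.1), and for 60 to 79 bp it was 10.1% (9.76 to 10.5). The SssI share was high throughout, at 89.6% for 60 to 79 bp, 95.5% for 80 to 99 bp and 98% for tracts of 100 to under 150 bp. Few TA steps therefore went with SssI peaks at every length examined. In the share under a peak, the tracts of 100 bp or more differed from shorter ones mainly in the TKO list. In rank they differed in both lists. The median percentiles at 60 to 79 bp, 80 to 99 bp and 100 bp or more were 28.4, 11.5 and 4.42 for SssI peaks. For TKO peaks they were 52.7, 50.5 and 33.9. In tracts with over 25 and up to 50% TA steps both lists rose with length, from 40.0% to 78.6% for SssI peaks and from 3.42% to 21.4% for TKO peaks between the shortest and the longest of the 3 classes.

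**Figure D5:**
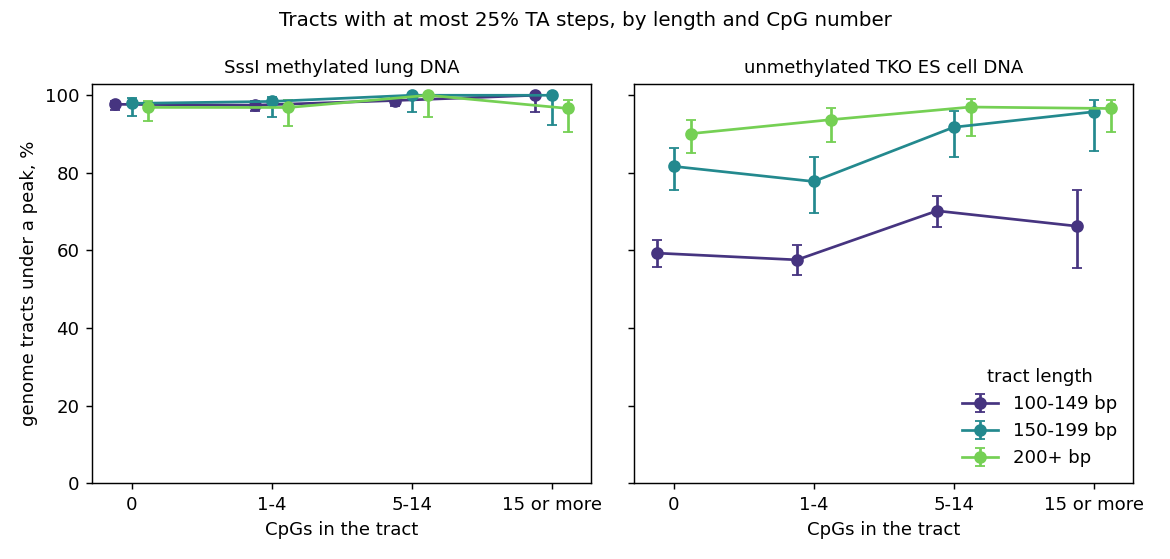
Share of genome tracts with at most 25% TA steps that lie under an SssI peak (left) or a TKO peak (right) (y axis, %), by the number of CpGs in the tract (x axis) and tract length (colours), with Wilson 95% intervals. The left panel is flat near 98%, and the right panel is ordered by length, from 59.3% to 90.1% in tracts without a CpG.

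Several regions show the range of the members. The longest tract, 869 bp with 97 CpGs and no TA step, lay over an intron of Fam71e2 within 3000 bp upstream of a transcript start. Its SssI peak (chr7:4755143-4756397) had a score of 1045, at percentile 5.84, and its TKO peak a score of 1667, at percentile 7.30. The next, 850 bp without any CpG and with 14.1% TA steps, was intergenic. Its SssI peak (chr13:102052512-102053741) had a score of 1301, at percentile 3.70, and its TKO peak 1147, at percentile 12.6. Both tracts, with 97 CpGs and with none, lay in the highest 15 percent of both lists. The tracts next in CpG number, with 82 over 540 bp (SssI peak chr15:99380470-99381426) and 73 over 568 bp (chr9:106382198-106383193), were intergenic, had no TA step and an SssI score of 969 each, and had TKO scores of 2005 and 914. A tract of 743 bp without CpG in intron 2 of Spag9, a scaffold protein of MAP kinase signalling, had an SssI score of 1148, at percentile 4.92, and a TKO score of 369, at percentile 33.5. A tract of 793 bp in intron 37 of Col4a4, a collagen chain of basement membranes, had 2 CpGs and scores of 1022 and 1085.

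The highest scores did not fall on the longest tracts of either list. The tracts of the top 3 members were 164, 135 and 152 bp in the SssI list and 123, 338 and 298 bp in the TKO list. Over all members score still rose with tract length, with Spearman correlations of 0.23 (SssI) and 0.36 (TKO). With peak width the correlations were larger, at 0.64 and 0.75, and tract length and width were not separated in them. A member in intron 4 of Rbpms, an RNA-binding protein gene, had 19 CpGs in its tract and ranked 30 in the SssI list with a score of 2311, while its TKO peak had 385, at percentile 32.5. An intergenic member on chromosome 1 (chr1:120358280-120358878) had a tract of 135 bp with 23 CpGs, an SssI score of 2309 and a TKO score of 1310. A member in intron 46 of Ubr2, a ubiquitin ligase of the N-degron pathway, also had an SssI score of 2309, with 14 CpGs, and a TKO score of 550. In the TKO list the highest score among members was 3284, at rank 32, over a tract of 123 bp with 1 CpG in intron 2 of Loxhd1, a gene of hair cell function in the inner ear. An intergenic member on chromosome 10 (chr10:14876588-14877289) with 338 bp and 2 CpGs followed with 3223, and a member in intron 7 of Mfsd13b, with 35 CpGs, had 3123. Their SssI scores were 1547, 1418 and 1022, at percentiles 2.01, 2.83 and 6.05. Over the 1880 TKO members with an SssI peak the scores of both lists had a Spearman correlation of 0.28.

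The member with the lowest score in each list had a higher share of TA steps than the median member of that list. Low scores also occurred with few TA steps, as in the Rbfox1 member of the TKO list, with 3.85% TA steps and a score of 71. The last SssI member was intergenic (chr14:118343496-118343682), with 111 bp, 27.3% TA steps, no CpG and a score of 18. The last TKO member (chr12:17067317-17067526) had 109 bp, 29.6% TA steps, no CpG and a score of 16, under an SssI peak with a score of 791. The 2 TKO members without an SssI peak lay in intron 1 of Nav3, a neuron navigator gene (212 bp, 2 CpGs, score 524), and in intron 1 of Rbfox1, a neuronal splicing factor (104 bp, 13 CpGs, score 71).

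Members were found in 7 of 12 genes that the study had shown in browser images, in the SssI list, and in 6 of them in the TKO list. These genes held from 3 (Rps6kl1) to 85 (Tshz2) SssI peaks each. The share over other genes was not computed, so the counts do not set these genes apart. In intron 15 of Cngb3, a cone photoreceptor channel subunit, a tract of 375 bp with 33 CpGs had a TKO score of 2102, at percentile 3.87, and an SssI score of 764, at percentile 8.78. In intron 3 of Mxi1, an antagonist of MYC, a tract of 259 bp with 36 CpGs had scores of 1947 and 1427. A tract of 423 bp with 54 CpGs in the 3′ UTR of Shq1, an H/ACA ribonucleoprotein assembly factor, had 1928 and 836. The zinc finger gene Tshz2 held 2 members in intron 1, of which that with 35 CpGs had scores of 1007 and 598 and that without CpG had 468 and 1110. The strongest Tshz2 peaks were not members, with a TKO score of 2681 over a longest tract of 13 bp and an SssI score of 2309 over 21 bp. In intron 14 of the helicase gene Dhx35 a tract of 362 bp with 55 CpGs had an SssI score of 799, while the TKO peak there covered 251 bp of it with a score of 114. The Pcdh7 tract, over a protocadherin gene, had 112 in the TKO list and 963 in the SssI list. The strongest TKO peak of Pcdh7 was another, in intron 1 (chr5:57759182-57760083), with a score of 1995 and a longest tract of 30 bp. The Rps6kl1 member in intron 9, with 34.0% TA steps, had an SssI score of 189 and no TKO peak. It is not the strongest peak of that gene, which lay in intron 4 (chr12:85141829-85142461) with a score of 1547 and a longest tract of 65 bp. Ago2, Arid2, Eml1, Src and Pdzd2 held SssI peaks but no member.

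Most members lay in introns or between genes, as did most peaks of both lists. By the peak midpoint, 43.8% (42.1 to 45.5) of SssI members were intronic and 47.9% (46.2 to 49.6) intergenic, beside 44.0% and 45.7% of all autosomal SssI peaks. Among TKO members 44.5% were intronic and 46.3% intergenic, beside 45.6% and 44.5%. Within 3000 bp upstream of a transcript start lay 7.45% (6.61 to 8.40) of SssI members, beside 8.82% of all SssI peaks. In 3′ UTRs lay 0.331% (0.185 to 0.591) of SssI members, beside 0.658% of all SssI peaks, and 0.319% (0.146 to 0.694) of TKO members, beside 0.447%. Other exons held 0.541% (0.343 to 0.854) of SssI members, beside 0.774%, and 0.478% (0.252 to 0.906) of TKO members, beside 0.618%. In 5′ UTRs lay 0.0325% of all SssI and 0.0275% of all TKO peaks and no member, which allows a share of up to 0.0902% of SssI and 0.159% of TKO members. On every autosome between 94.2% and 100% of tracts with at most 25% TA steps lay under an SssI peak and between 63.8% and 75.7% under a TKO peak.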

How the data were processed

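Peak lists of ZBTB43 in vitro affinity sequencing were analysed for 2 DNAs. They rest on 8 of the 12 libraries of the series, 2 in each of 4 groups. The other 4 libraries, from sperm DNA, were not analysed here. The authors aligned 50-base reads to mm10 with BWA 0.7.17 and called peaks with MACS2 2.2.7.1 at default parameters (q under 0.05), with duplicates combined and MBP libraries as the control. The submitters' processing notes also name bcl2fastq 1.9.0, deepTools 3.4.3 and SAMtools. Each deposited peak carries a score, 10 times the −log10 q cut to a whole number. The lists hold neither reads, summits nor fold enrichment, and the depth of each library is not in them. The study states depth for its affinity libraries alike, with no value for each. Peak numbers run to 179666 and 15110, and 3891 and 416 of them are missing from the deposited lists. Repeat lengths can differ between strains, and tracts were measured on the reference sequence only.

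The longest strictly alternating run with a G or C was found inside each peak and over the whole genome on GRCm38. Scores were ranked within each full list, with ties broken by width. GENCODE M21 gave the annotation at the peak midpoint, in the order promoter (3000 bp upstream), 5′ UTR, 3′ UTR, other exon, intron. Intron and exon numbers follow the principal coding transcript, or else the transcript with the most exons. Shares have Wilson 95% intervals and medians order-statistic 95% intervals. With no count in a class, the upper limit is 3 counts of the total. No p-value was computed, because each DNA has 1 pooled list. The search was tested on simulated data, where 600 of 600 planted tracts were found with both ends and their CpG number, and overlaps were checked against bedtools 2.31.1. Calculations used scipy 1.17.1, pandas 2.3.3 and numpy 2.4.6 under Python 3.11.15, and plots matplotlib 3.10.9.

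Named by rule in each list were the 3 members with the longest tracts, the 3 with the highest scores, the 3 with the most CpGs, the lowest score, the 2 longest tracts without CpG, the longest uncaptured tracts, TKO members without an SssI peak and members in 12 genes of the study's browser images. Some of the named tracts and sequences are not reported here. Members, classes and this rule were chosen with earlier results of these data known.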

Additional observations from a re-analysis of the deposited data

How the results depend on the processing

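Of 72 planned recalculations, 46 gave a value within the interval of the reported one or, for counts, within 1.5 times it. Admitting runs only of A and T and merging peaks within 200 bp moved none of them. The tract minimum moved most. At 80 bp there were 7368 SssI and 2874 TKO members, and at 150 bp 1073 and 797. The SssI overlap with TKO peaks was then 40.0% and 77.9%, the share of SssI members with a CpG 58.7% at 80 bp, that of TKO members 65.3% and 59.2%, and the median rank percentile 9.75 and 4.40 for SssI and 43.0 and 26.3 for TKO members. At 150 bp 64.4% of genome tracts lay under an SssI peak, and 18.9% (80 bp) and 45.4% (150 bp) under a TKO peak. With tracts measured in the genome the SssI overlap was 54.0%, the share with a CpG 53.6% and the median percentile 6.39. With only peaks at q under 1e-05 the median percentiles were 6.71 and 37.5, and 46.6% of genome tracts lay under an SssI peak. With at least 50% covered, the SssI overlap was 50.8% and 46.7% of genome tracts lay under an SssI peak. With chromosomes X and Y the genome shares were 46.6% (SssI) and 25.3% (TKO).

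For the TA classes, settings were chosen after seeing the data, and 11 of 20 values stayed within the interval. Tracts with at most 25% TA steps lay under an SssI peak in 99.1% and under a TKO peak in 64.5% where at least 80% of 50-base stretches occurred once, in 96.5% and 46.2% from 80 bp, and under a TKO peak in 88.7% from 150 bp. Tracts with over 50% TA steps lay under an SssI peak in 1.13% with at least 50% of the tract covered, in 2.36% with stretches occurring once and in 4.37% from 150 bp, and under a TKO peak in 0% from 150 bp. The causes of these differences were not tested. No paired analysis was possible because each DNA has 1 pooled list and the values come from no test.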

Other observations

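Of the 2839 autosomal tracts with at most 25% TA steps, 58 had no SssI peak. In 28 of them fewer than 50% of the 50-base stretches in and around the tract occurred once in the genome, and the median of that share was 58.1%, beside 85.9% for the tracts with an SssI peak. Whether reads could be placed there was not tested.

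A tract of 508 bp among them lay in intron 1 of Bckdhb, a subunit of the branched-chain keto acid dehydrogenase (chr9:83939205-83939712). A pair of tracts of 387 bp lay on chromosome 2 (chr2:100595849-100596235 and chr2:100717367-100717753), and no 50-base stretch in or around either occurred once. A tract of 368 bp with 15 CpGs and 1.09% TA steps had no peak in either list (chr13:110609313-110609680).

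Of the 3014 tracts with over 50% TA steps, 95 had an SssI peak and 4 a TKO peak. These 4 lay on chromosomes 5, 8, 11 and 12, had between 52.2% and 60.7% TA steps, and had TKO scores of 121, 63, 260 and 69. The tract inside the TKO peak was shorter than the genome tract in 3 of them.

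Tracts with a repeat unit of 10 bp were captured most often among the units examined, with 87.8% of 74 under an SssI peak and 78.4% under a TKO peak, and those with a unit of 6 bp least often, with 33.4% and 14% of 578. These units also differ in base composition, and the 2 were not separated.

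The gene over the most SssI member midpoints was Gm20388, with 11, followed by Cdh13, which encodes T-cadherin, and Nckap5 with 7 each. The 1622 SssI members with a gene over their midpoint lay over 1315 genes. Neither the length of these genes nor their number of all SssI peaks was set beside the counts, so the counts do not set these genes apart.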
